A study of Rattus norvegicus with 39 samples.

Results

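The let-7 family was described here in the small RNA of rat sperm. Its members were the 8 mature 5p products listed as rno-let-7a-5p, rno-let-7b-5p, rno-let-7c-5p, rno-let-7d-5p, rno-let-7e-5p, rno-let-7f-5p, rno-let-7g-5p and rno-let-7i-5p (let-7a to let-7i below), taken by family name, whatever their values, from the 405 rows of the mature miRNA count table. All 8 were present and all 8 passed the filter on low counts, which kept 105 miRNAs for testing. The samples were cauda epididymal sperm of wild-type Fischer rats, 1 adult male per library, taken 5 weeks after a 5-day course of dosing with the solvent EGME (ethylene glycol monomethyl ether), which is known to damage spermatocytes. The groups received, by oral gavage, water only (EGME0, the controls, 10 males) or EGME at 50 (EGME50, 10 males), 60 (EGME60, 9 males) or 75 mg/kg/d (EGME75, 10 males), and the males were 11 to 12 weeks old. The 39 libraries ran on 13 chips of 3 libraries, and no chip held a single dose group only. Males are named below by their dose group and library number.

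let-7 miRNAs are short regulatory RNAs that guide Argonaute proteins to messenger RNAs, mostly through the seed, the bases near the 5′ end of the miRNA. The family is among the most conserved of animal miRNAs and is known for promoting differentiation and restraining growth genes. In mammals it is made from several hairpin loci, some of which are clustered, and the precursors of most members are held back by the LIN28 proteins in immature cells. let-7 miRNAs are abundant in many differentiated tissues, so a level in an epididymal sperm preparation can include RNA of other cells.

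The mature sequences show how close the 8 members are, and so how little separates the counts of one from another. All 8 were found in RefSeq (assembly GRCr8), each 22 bases long, and all 8 share one seed. Each is printed 5′ to 3′ with its seed, bases 2 to 8, in capitals, and the same-seed relative miR-98-5p is added for comparison.
let-7a-5p: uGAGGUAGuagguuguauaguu
let-7b-5p: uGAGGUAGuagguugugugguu
let-7c-5p: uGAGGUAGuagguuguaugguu
let-7d-5p: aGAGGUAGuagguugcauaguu
let-7e-5p: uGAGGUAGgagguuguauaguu
let-7f-5p: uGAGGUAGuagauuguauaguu
let-7g-5p: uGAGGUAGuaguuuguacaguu
let-7i-5p: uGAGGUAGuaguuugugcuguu
miR-98-5p: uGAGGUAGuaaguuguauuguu

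With positions counted from 1 at the 5′ end, and let-7a as the reference whose base is written first, let-7c carries the single change A19G. let-7b carries A17G and A19G, and so is 1 base from let-7c and 2 from let-7a. The other single-base relatives of let-7a are let-7e (U9G) and let-7f (G12A). let-7g carries G12U and U18C, let-7d carries U1A and U16C, and let-7i is the most distant from let-7a with 4 changes (G12U, A17G, U18C and A19U). The bases that tell let-7b and let-7c from let-7a lie in the 3′ part of the molecule, so a read that ends before position 17 matches all 3. A read that ends before position 19 cannot tell let-7c from let-7a. How the authors' counting treated mismatches, trimmed 3′ ends and reads that fit several members is not given in the sources used here. Among the rows of the other (3p) arm, let-7a-1-3p and let-7c-2-3p were identical in every library, 17 counts each. Whether a read could be counted for more than 1 of the 8 members, and so more than once in their sum, was not tested. Counts of near-identical members are therefore uncertain to that extent, in every dose group.

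The miRNA table was small. It held 139 to 38208 counts per library (median 10030), and the group means were 16570 (EGME0), 17620 (EGME50), 14260 (EGME60) and 3808 (EGME75), so the highest dose had the shallowest libraries. The summed let-7 count ran from 35 in EGME75 male 24 to 3478, with a median of 545. Of the 3 libraries under 1000 miRNA counts, all were at EGME75 (males 7, 23 and 24). The precision of a share of let-7 counts followed from this: for let-7c it was 27.7% in EGME75 male 39 (258 of 933 counts, 95% Wilson interval 24.9% to 30.6%) and 28.6% in EGME75 male 24 (10 of 35 counts, 16.3% to 45.05%). Reads carried no molecular identifiers in the files, so these intervals cover counting error only. Markers of the cell types that such a preparation can hold were also read. Germ cell miRNAs (6 in the list) summed to 19.8% to 33.1% of miRNA counts in controls, with a median of 26.3%, and to 6.48% to 22.05% at EGME75, with a median of 13.3%, and 4 of the 5 tested were called lower at that dose. Epithelial miRNAs (5 listed) moved the other way, from 0.625% to 1.29% in controls, with a median of 0.872%, to 1.81% to 4.77% at EGME75, with a median of 2.49%, and 3 of the 4 tested were called higher. Blood cell miRNAs (7 listed, 6 in the table, 3 tested and all 3 called higher) had medians of 0.114% in controls and 0.789% at EGME75, and muscle miRNAs (4 listed, 2 tested, 1 called higher) 1.67% and 3.70%. No marker was at 0 in every library. The let-7 results below move with these shares, and the part of other cells in them was not tested. In such bulk samples fewer cells of a type and less RNA per cell cannot be told apart.

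let-7a was the leading member in control sperm, and at EGME60 and EGME75 let-7c passed it in part of the males. Of the summed let-7 counts, let-7a held 44.0% ± 6.76 (SD, n = 10) at EGME0, 36.4% ± 5.45 (n = 10) at EGME50, 31.3% ± 9.43 (n = 9) at EGME60 and 29.9% ± 8.45 (n = 10) at EGME75. let-7c held 13.8% ± 3.75, 22.2% ± 6.43, 25.04% ± 8.66 and 29.7% ± 7.99 in the same groups. These shares need no scaling between libraries, but they sum to 100%, so a higher share of one member lowers those of the others.

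The spread over males was wide, and the groups overlapped. The share of let-7c ran from 8.51% to 19.6% with a median of 13.9% at EGME0, and from 12.2% to 31.2% with a median of 22.04% at EGME50. It ran from 11.3% to 37.3% with a median of 24.4% at EGME60, and from 15.96% to 41.7% with a median of 28.3% at EGME75. It lay above the highest control in 7 of 10 males at EGME50, 6 of 9 at EGME60 and 9 of 10 at EGME75. The share of let-7a lay below the lowest control (33.04%) in 3 of 10, 6 of 9 and 8 of 10 males. Both control limits came from EGME0 male 33, the shallowest control library, with 112 let-7 counts among 1098 miRNA counts. The next controls were at 17.6% for let-7c and 34.35% for let-7a. No EGME75 male had a let-7c share below the control median, and 1 of them, male 16, stayed inside the control range for let-7c and above the control median for let-7a.

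**Figure D1:**
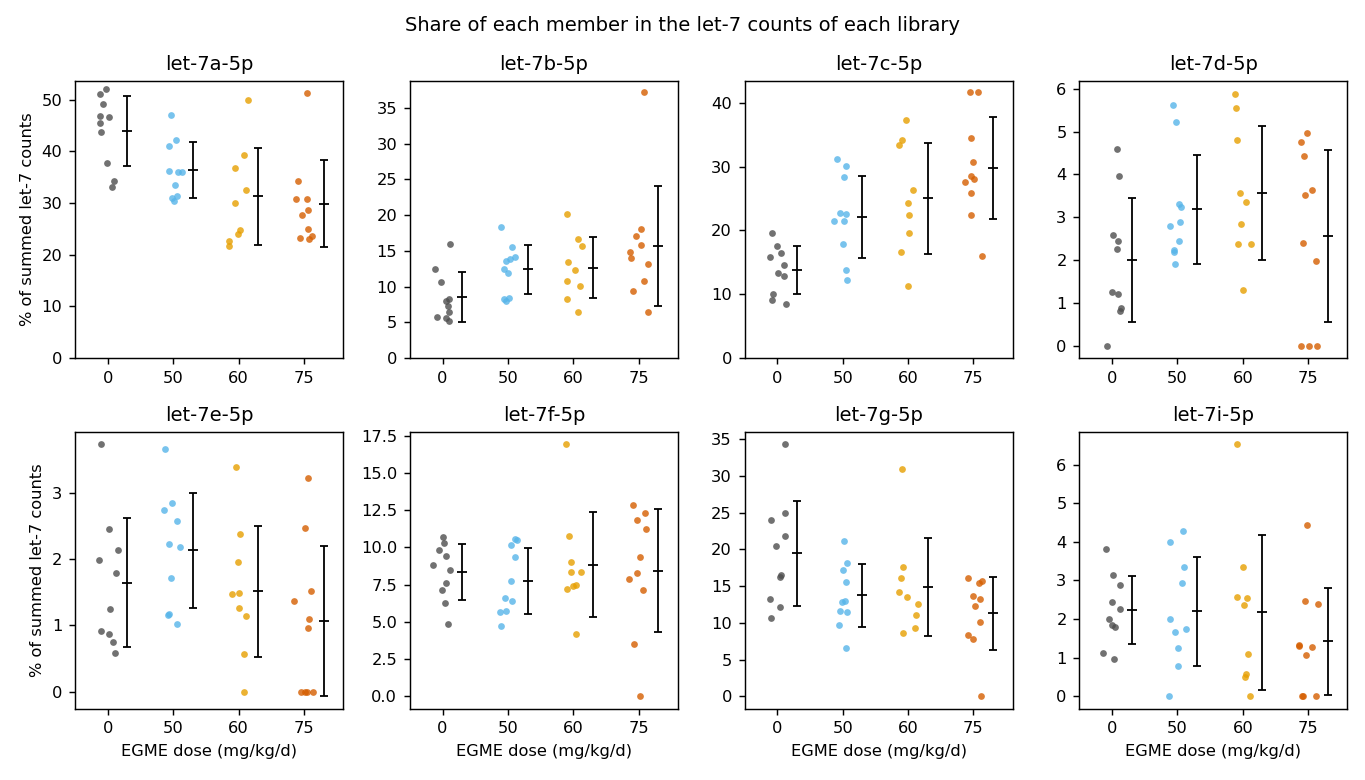
Share of the summed let-7 counts (percent, y axis) held by each of the 8 members, 1 panel per member, against dose group (x axis, mg/kg/d). Each point is 1 male, and the bar beside the points is the mean ± SD. The means of let-7c and let-7b are higher and those of let-7a and let-7g lower at every dose than in controls, with let-7c going from a mean of 13.8% to 29.7% and let-7a from 44.0% to 29.9%, and neighbouring groups overlap in every panel.

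The ratio of let-7c to let-7a counts, a measure chosen after the values had been seen and given with no test, put this in 1 number per male. It ran from 0.199 to 0.595 with a median of 0.270 at EGME0 and from 0.259 to 0.862 with a median of 0.696 at EGME50. It ran from 0.308 to 1.58 with a median of 0.808 at EGME60 and from 0.311 to 1.67 with a median of 1.09 at EGME75. No male at EGME0 or EGME50 had more let-7c than let-7a, against 4 of 9 at EGME60 and 5 of 10 at EGME75. The ratio was above the highest control (EGME0 male 33, with the next control at 0.460) in 9 of 10 males at EGME75. The exception was again male 16, with 280 let-7a and 87 let-7c counts. Its let-7a share was 51.4% (95% Wilson interval 47.2% to 55.6%) and its let-7c share 15.96% (13.1% to 19.3%). Its germ cell marker share, 19.3%, was above the EGME75 median of 13.3% and under the lowest control, 19.8%. Its epithelial share, 2.25%, was under the EGME75 median of 2.49% and above the highest control, 1.29%. Both lay inside the range of the other EGME75 males, and their part in its let-7 counts was not tested.

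**Figure D2:**
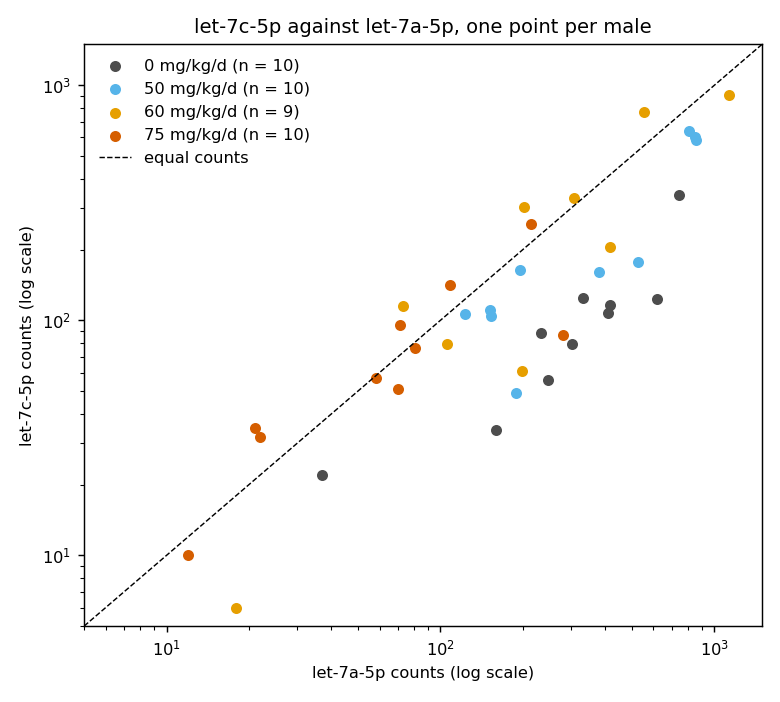
Counts of let-7c (y axis) against counts of let-7a (x axis) in each library, both on log scales, with 1 point per male coloured by dose group and a dashed line at equal counts. All controls and all EGME50 males lie below the line, and 4 EGME60 and 5 EGME75 males lie above it.

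The question for each member was whether its level changed with dose against the other miRNAs of the table. Counts were tested with edgeR's quasi-likelihood test with TMM scaling, which sets libraries on a common scale through the bulk of the miRNAs, and p-values were adjusted by Benjamini-Hochberg over the 105 miRNAs. Of the 8 members, 0 were called at EGME50 (adjusted p under 0.05), where 2.86% of all tested miRNAs were. An unadjusted p under 0.05 was seen there for 1 member, beside 19 of the 105 miRNAs. At EGME60, 1 member was called beside 31.4% of all miRNAs, at EGME75 1 beside 42.9%, and for the slope on dose 2 beside 45.7%. These counts do not set the family apart from the table. The median log2 fold change of the 8 members was 0.31, 0.17 and 0.0046 at EGME50, EGME60 and EGME75, beside -0.009, 0.11 and -0.10 over all 105 miRNAs. Behind a median near 0 the members were split, with 4 higher and 4 lower at EGME75.

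rno-let-7c-5p was the member that rose. Its TMM-scaled level, in CPM (counts scaled to a common library size), ran from 3517 to 20560 with a median of 10240 in controls, from 5135 to 44870 with a median of 14830 at EGME50, from 4609 to 50270 with a median of 17230 at EGME60 and from 10500 to 39580 with a median of 25030 at EGME75. All 10 EGME75 males were above the control median and 6 were above the highest control, so the groups overlapped in part. That control was the shallow EGME0 male 33, and the next control was at 15980 CPM. The log2 fold change was 0.97 (SE 0.36, edgeR adjusted p = 0.145) at EGME50, 1.03 (SE 0.36, adjusted p = 0.0259) at EGME60 and 1.26 (SE 0.36, adjusted p = 0.00386) at EGME75. The slope was a log2 change of 1.28 over 75 mg/kg/d (SE 0.36, edgeR adjusted p = 0.00266). rno-let-7c-5p kept its call at EGME75 in all 20 fits that left out 1 library (log2 fold changes of 1.10 to 1.46, highest edgeR adjusted p = 0.0122) and its slope in all 39. Depth moved with the result: with the log10 miRNA total of each library as a covariate the EGME75 value was 0.78 and was not called (edgeR adjusted p = 0.128). With library totals alone in place of TMM it was 1.91, and that of let-7b was 1.58. At EGME60 the call was lost without EGME60 male 22 (0.76, edgeR adjusted p = 0.122), without EGME0 male 1, 9, 10 or 25 (smallest adjusted p = 0.0502), and with chip as a block (0.99, adjusted p = 0.0523).

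rno-let-7b-5p followed let-7c at a smaller size. Its level ran from 1965 to 15440 CPM with a median of 5028 in controls, from 3353 to 19890 with a median of 9972 at EGME50, from 2304 to 21160 with a median of 9935 at EGME60 and from 5636 to 43550 with a median of 9388 at EGME75. All 10 EGME75 males were above the control median, but only male 24, whose library held 35 let-7 counts in all, was above the highest control. The log2 fold change was 0.70 at EGME50 and 0.65 at EGME60 (edgeR adjusted p = 0.281 and 0.154). At EGME75 it was 0.88 (SE 0.38, edgeR adjusted p = 0.0505), just outside the threshold, while the slope of 0.88 over 75 mg/kg/d (SE 0.36, adjusted p = 0.0407) was just inside it. Single libraries moved it across the threshold in both directions. The slope lost its call in 9 of 39 fits that left out 1 library (EGME0 males 1, 2, 9, 10, 17, 25 and 34 and EGME75 males 24 and 31), with log2 changes of 0.69 to 0.88, and also with the log10 miRNA total as a covariate (0.61), without the filter (0.84) and without the 3 libraries under 1000 counts (0.80). With that covariate the EGME75 value of let-7b was 0.30 (edgeR adjusted p = 0.551). The EGME75 value gained a call in 9 of 20 such fits (without EGME0 male 26 or 33 or EGME75 male 7, 8, 15, 16, 23, 32 or 40), with log2 fold changes of 0.94 to 1.20.

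Whether a member parted from the rest of the family was asked in a fit over the same 105 miRNAs in which the summed let-7 count took the place of the library size. A log2 value there says how a member changed relative to the family total. let-7c was 0.69 at EGME50 (edgeR adjusted p = 0.331), 0.88 at EGME60 (SE 0.29, edgeR adjusted p = 0.0225), 1.11 at EGME75 (SE 0.28, edgeR adjusted p = 0.00196) and 1.10 for the slope (SE 0.27, edgeR adjusted p = 0.00125). let-7b was 0.55 and 0.59 at the lower doses (edgeR adjusted p = 0.549 and 0.161), 0.83 at EGME75 (SE 0.31, adjusted p = 0.0299) and 0.80 for the slope (SE 0.29, adjusted p = 0.0228). These 2 were the members called on this scale. The calls numbered 0, 1, 2 and 2 of 8 at EGME50, EGME60, EGME75 and for the slope. In the same fits edgeR called 0%, 21.9%, 40% and 41.9% of the 105 miRNAs, so the counts do not set the family apart here either. The let-7c calls at EGME75 and for the slope held in every fit that left out 1 library and with the log10 miRNA total as a covariate (0.89 at EGME75, adjusted p = 0.0261), a covariate added to this fit after the data had been seen. Without the filter on low counts the EGME75 value of let-7c was still 1.11 but was not called (edgeR adjusted p = 0.0839), and its EGME60 call was lost there and with chip as a block (0.83, adjusted p = 0.0974). let-7b lost its EGME75 call without EGME75 male 24 (0.65, edgeR adjusted p = 0.0722), without EGME0 male 1 or 2, without the filter, with chip as a block, without the 3 libraries under 1000 counts, and with that covariate (0.47). Its slope call on this scale was lost with chip as a block (0.79, edgeR adjusted p = 0.0607), without the filter (0.81, adjusted p = 0.108) and with that covariate (0.62).

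**Figure D3:**
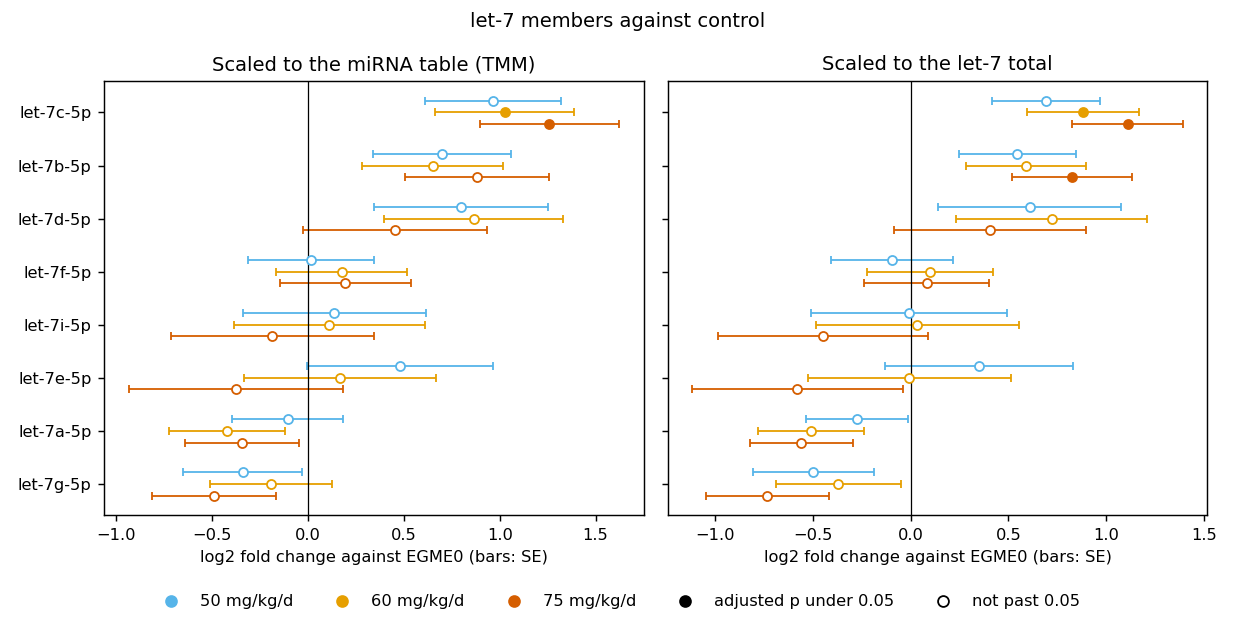
log2 fold change against EGME0 (x axis) at each dose, for each of the 8 members (y axis), on the TMM scale and relative to the summed let-7 count, in separate panels. Symbols are estimates with bars of 1 SE, and filled symbols have an adjusted p under 0.05. let-7c is filled at EGME60 and EGME75 in both panels, let-7b at EGME75 in the family-scaled panel, and no other member is filled.

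rno-let-7a-5p and rno-let-7g-5p lay on the other side. let-7a, the most abundant member, had a TMM-scaled level of 16450 to 44620 CPM with a median of 28630 in controls and 11440 to 45090 CPM with a median of 21330 at EGME75. Its log2 fold change was -0.11, -0.42 and -0.34 at the 3 doses (smallest edgeR adjusted p = 0.283). Relative to the family it was -0.27, -0.51 and -0.56 (edgeR adjusted p = 0.835, 0.171 and 0.0811), and -0.57 for the slope (SE 0.24, unadjusted p = 0.0218, edgeR adjusted p = 0.0509). let-7g, which shares its changes G12U and U18C with let-7i, had a share of let-7 counts of 10.7% to 34.4% with a median of 18.6% in controls and of 0% to 16.1% with a median of 12.8% at EGME75. All 10 EGME75 males lay below its control median and 4 below its lowest control. Its log2 value relative to the family was -0.73 at EGME75 (SE 0.32, unadjusted p = 0.0242, edgeR adjusted p = 0.0564) and -0.66 for the slope (adjusted p = 0.0535). On the TMM scale let-7g was -0.34, -0.19 and -0.49 at the 3 doses (smallest edgeR adjusted p = 0.206). Neither member was called in these fits, and on the TMM scale neither was near the threshold. Relative to the family both lay close to it for the slope, and let-7g also at EGME75. Relative to the family, let-7a at EGME75 was called without EGME75 male 16 (-0.69, edgeR adjusted p = 0.0376), and let-7g at EGME75 without EGME0 male 18 or 26 or EGME75 male 23. The slope was called in 10 of 39 fits that left out 1 library for let-7a and in 4 of 39 for let-7g. When each was set against the sum of the other 7 members instead, both were called lower at EGME75, let-7a at -0.85 (edgeR adjusted p = 0.0224) and let-7g at -0.90 (adjusted p = 0.0333). That sum holds let-7c and let-7b, which were higher at this dose. The fit therefore cannot tell a fall of let-7a or let-7g from a rise of let-7c and let-7b. On the TMM scale their direction rested on the scaling: with library totals alone the EGME75 values were 0.28 for let-7a and 0.09 for let-7g, not called, and the median of all miRNAs moved from -0.10 to 0.50.

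The 4 scarcer members were not called in either fit. let-7f, a single base from let-7a, was the steadiest of them, with 8.34% ± 1.87 (SD, n = 10) of let-7 counts at EGME0, 7.74% ± 2.23 at EGME50, 8.84% ± 3.50 (n = 9) at EGME60 and 8.43% ± 4.12 at EGME75. Its log2 fold change stayed between 0.01 and 0.20, with a SE of 0.34 at EGME75. let-7d, whose first base differs from that of all other members, had log2 fold changes of 0.80, 0.86 and 0.45 (SE 0.45, 0.46 and 0.48, smallest edgeR adjusted p = 0.144). Its share was 1.999% in controls and 3.18%, 3.56% and 2.57% at the rising doses. let-7e (0.48, 0.17 and -0.38) and let-7i (0.14, 0.11 and -0.19) had SEs of 0.48 to 0.56. At EGME75, let-7e was listed at 0 in 4 of 10 libraries and let-7d and let-7i in 3 each, and their median counts were 3.5, 6 and 4, so smaller changes were not detectable for them at this depth. With library totals alone let-7e and let-7i at EGME75 changed sign, to 0.23 and 0.38, and let-7d was called higher at EGME60 (1.29, edgeR adjusted p = 0.0323) and for the slope (1.30, adjusted p = 0.0277).

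The order of the members changed accordingly. By mean TMM-scaled level, controls ran let-7a, let-7g, let-7c, let-7b, let-7f, let-7i, let-7d, let-7e, and EGME75 ran let-7a, let-7c, let-7b, let-7g, let-7f, let-7d, let-7i, let-7e. All are of one length, so levels can be set against each other, apart from how well each is captured in a library. In controls let-7a exceeded let-7g in 10 of 10 libraries and let-7c exceeded let-7b in 10 of 10, while let-7b and let-7f, and let-7i and let-7d, were each split 5 to 5 and had no order beyond their spread. At EGME75 let-7a exceeded let-7c in 5 of 10 libraries and let-7b exceeded let-7g in 6 of 10, so neither pair was ordered, while let-7c exceeded let-7g in 10 of 10, against 3 of 10 in controls. let-7a was the highest member in 10, 10, 5 and 4 libraries of the 4 groups and let-7c in 0, 0, 4 and 5. Pairs summed after the values had been seen, with no test, showed the same exchange: let-7b and let-7c together held 22.3% ± 6.59 (SD) of let-7 counts at EGME0 and 45.4% ± 12.0 at EGME75, and let-7a and let-7g together 63.5% ± 6.99 and 41.1% ± 9.15.

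The family as a whole took a larger mean part of the miRNA table at each dose than in controls, and the share moved with depth. The summed let-7 count was 5.50% ± 2.27 (SD, n = 10) of miRNA counts at EGME0, 8.02% ± 5.17 at EGME50, 7.48% ± 3.72 (n = 9) at EGME60 and 10.3% ± 5.69 at EGME75. All 10 EGME75 males were above the control median of 5.25% and 5 were above the highest control of 10.2%. That control was EGME0 male 33, and the next control was at 7.22%. At EGME0, EGME50 and EGME75 the highest total was in the shallowest library of the group. These were male 33 (1098 miRNA counts), male 36 (1681, total 20.2%) and male 24 (139, total 25.2%). At EGME60 the shallowest library, male 6 (1990 miRNA counts), had the lowest total of its group, 1.81%. The germ cell markers, which fell as a share over the same groups, are part of the denominator of this share, and their part in it was not tested. Without the 5 most abundant miRNAs in the denominator, the let-7 total at EGME0 was 10.03% and the let-7 total at EGME75 was 14.1%. Without the 3 libraries under 1000 miRNA counts, the let-7 total at EGME75 was 8.25%, beside the 8.02% of EGME50. The larger mean at the highest dose than at EGME50 thus rested mostly on those 3 libraries. On the TMM scale the median of the members at EGME75 was 0.0046, as given above.

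The hairpins showed which members can be made together. In RefSeq (GRCr8), used only for which genes neighbour each other, the hairpin Mirlet7c2 lay within 10 kb of Mirlet7b on the same strand, so the 2 members called for the slope share a locus. let-7c has a further hairpin, Mirlet7c1, next to Mir99a, and the mature count cannot tell the 2 sources apart. let-7a, let-7f and let-7d share a locus (Mirlet7a1, Mirlet7f-1os and Mirlet7d), and their log2 fold changes at EGME75 were -0.34, 0.20 and 0.45. let-7a has its other hairpin next to Mir100, let-7f next to Mir98, and let-7e lies with Mir99b and Mir125a. Mirlet7g and Mirlet7i had no other hairpin within that distance.

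The listed partner miRNAs were 5, miR-99a, miR-99b, miR-100, miR-125a and miR-125b (all 5p), of which 4 were tested. No miR-125b hairpin lay within 10 kb of a let-7 hairpin, and it was listed because it is known to lie farther along the miR-99a and miR-100 clusters. Among them 0, 0, 1 and 1 were called at EGME50, EGME60, EGME75 and for the slope, all higher, beside 2.86%, 20%, 21.9% and 24.8% of all miRNAs called higher. The one called was miR-125b-5p, a homolog of the worm timing miRNA lin-4, with 0.89 at EGME75 (SE 0.31, edgeR adjusted p = 0.0147). miR-99a-5p, the neighbour of Mirlet7c1, was -0.21, 0.77 and 0.57 at the 3 doses (smallest edgeR adjusted p = 0.0541). miR-99b-5p and miR-125a-5p, the neighbours of let-7e, were -0.68 and 0.48 at EGME75 (edgeR adjusted p = 0.441 and 0.362).

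Other miRNAs came near the profiles of the called members. By the root mean square difference of the 3 log2 fold changes, among 90 miRNAs outside the family whose counts averaged 10 or more per library, the nearest to let-7c were miR-23a-3p (difference 0.18, with 0.73, 1.22 and 1.21), miR-672-5p (0.26, with 0.55, 0.89 and 1.35) and miR-195-5p (0.29, with 1.10, 1.49 and 1.37). The nearest to let-7b were miR-146a-5p (0.14, with 0.55, 0.80 and 0.75), miR-29a-3p (0.22, with 0.46, 0.78 and 1.15) and miR-125a-5p (0.25, with 0.74, 0.50 and 0.48). miR-146a-5p and miR-125a-5p were not called at any dose or for the slope, and miR-195-5p was not called at EGME75 (edgeR adjusted p = 0.0692). The SEs of the listed miRNAs at EGME75 were 0.31 to 0.63, larger than the listed differences. The 3 comparisons share the same controls, so this likeness is a description of 3 values per miRNA.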

How the data were processed

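The data were small RNA counts of 39 sperm libraries, 1 male each. Per the labels' protocols, RNA was isolated with mirVana and DNase, and libraries were made from 10 ng with the Ion total RNA-seq kit v2. The submitters' processing notes name FastQC, Bowtie and DESeq2, without versions or settings. The values used are raw read counts per mature miRNA as deposited by the authors (whole numbers, 405 miRNAs, unmatched columns 0). The other 3 deposited tables were not used here.

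Counts were tested with edgeR 4.0.16 (limma 3.58.1, R 4.3.3): TMM scaling (factors 0.668 to 2.21), filterByExpr by group (105 miRNAs kept, with 97.1% of counts), robust quasi-likelihood fits over all 4 groups, two-sided tests and Benjamini-Hochberg adjustment over 105 miRNAs, with a threshold of 0.05. The common biological coefficient of variation was 0.588. Slopes on dose are printed over 75 mg/kg/d. A further fit replaced the library size by the summed let-7 count, with no TMM factor. CPM values use the TMM factors. Scripts were tested on simulated data. Alternatives were RLE factors, DESeq2 1.42.0, library totals, no filter, chip as a block, depth as a covariate, a minimum of 1000 counts, the other 7 members as reference and leaving out each library. Shares and figures used Python 3.11.15 with pandas 2.3.3, numpy 2.4.6, scipy 1.17.1 and matplotlib 3.10.9.

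The named miRNAs were the 8 members, miR-98-5p, the let-7 3p arms, 5 locus partners and, for each member called at EGME75 or for the slope, the 3 nearest profiles outside the family. The family was picked for description, and the lists and tests were chosen, with earlier results of these data known. Its 8 members then followed from their names alone. RefSeq (GRCr8) gave the mature sequences and neighbours, with no coordinates, since it is not the build of the files.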

Additional observations from a re-analysis of the deposited data

Results flagged for a closer look

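In groups of 9 or 10 males, the highest or lowest male was set against the others by Dixon's criterion, in 44 groups of member shares, ratios and let-7 totals. It picked 6 values, and chance picks about 1 in 20 groups.

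Of these, 3 came from EGME75 male 24, the shallowest library, with 35 let-7 counts among 139 miRNA counts. Its let-7b share of let-7 counts was 37.1% (95% Wilson interval 23.2% to 53.7%), far above the next male at 18.1%. let-7g was listed at 0 there, a share of 0% with an upper Wilson limit of 9.89%, while the next lowest male had 7.83%. Its let-7 total was 25.2% of miRNA counts, against 11.5% in the next male.

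EGME75 male 16 had the highest let-7a share of its group, 51.4%, against 34.3% in the next male, on 545 let-7 counts. EGME60 male 13 had the highest let-7g share, 30.98%, against 17.7% in the next male, on 539 let-7 counts. Its let-7c to let-7a ratio of 0.308 was the lowest of its group. Its germ cell marker share, 28.1%, was the highest at EGME60 and above the control median of 26.3%. Its epithelial share, 1.31%, was above the highest control, 1.29%. EGME60 male 6, with the next ratio (0.333, on 36 let-7 counts), had a germ cell share of 16.9%. The part of these shares in the let-7 counts was not tested. In EGME50 male 36 the let-7 total was 20.2% of miRNA counts, against 10.8% in the next male. It had 340 let-7 counts among 1681 miRNA counts, the shallowest library of its group.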

How the results depend on the processing

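No paired analysis was possible because no library number occurred in more than 1 dose group. The number of let-7 members called was 0, 1, 1 and 2 at EGME50, EGME60, EGME75 and for the slope, and 0, 1, 2 and 2 relative to the family total. On the TMM scale let-7c was called at EGME75 under every alternative but the depth covariate, and the cause of each change below was not tested.

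With DESeq2 or RLE factors 2 members were called at EGME75, and signs changed for let-7f at EGME50 (-0.15 and -0.16) and for let-7i at EGME50 (-0.0127 and -0.0262) and EGME60 (-0.0291 and -0.0419). With library totals alone 1, 3, 2 and 3 members were called at EGME50, EGME60, EGME75 and for the slope. The median over the 105 miRNAs then went from -0.009 to 0.24, from 0.11 to 0.50, from -0.10 to 0.50 and, for the slope, from 0.04 to 0.57. It turned let-7a at EGME50 (0.26), EGME75 (0.28) and for the slope (0.19), let-7g at EGME60 (0.13), EGME75 (0.0851) and for the slope (0.0934), let-7e at EGME75 (0.23) and for the slope (0.55), and let-7i at EGME75 (0.38) and for the slope (0.46). The split of all called miRNAs into higher and lower went from 21 and 12 to 34 and 7 at EGME60, from 23 and 22 to 33 and 10 at EGME75, and from 26 and 22 to 41 and 11 for the slope.

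With chip as a block 0 members were called at EGME60 and 2 at EGME75, and relative to the family 0 at EGME60, 1 at EGME75 and 1 for the slope. Signs changed for let-7a at EGME50 (0.10) and, relative to the family at EGME60, for let-7e (0.0762) and let-7i (-0.14). With the log10 miRNA total as a covariate 0 were called at EGME75 and 1 for the slope, with let-7i at 0.26 (EGME75) and 0.23 (slope) and let-7e at 0.11 (slope). The same covariate in the family fit, added after the data had been seen, left 1 at EGME75 and 1 for the slope, with let-7e at 0.0342 (EGME60) and 0.0169 (slope) and let-7i at 0.0886 (EGME75) and 0.0804 (slope). Without the 3 libraries under 1000 miRNA counts 1 was called for the slope and 1 at EGME75 relative to the family, with let-7i at 0.19 (EGME75) and 0.20 (slope) and let-7e at 0.0529 (slope). Without the filter 1 was called for the slope, and relative to the family 0 at EGME60, 0 at EGME75 and 1 for the slope. With the other 7 members as reference 4 were called at EGME75 and 4 for the slope, let-7c and let-7b higher and let-7a and let-7g lower. Each such reference holds the members that moved the other way, so these calls are not independent of each other. As a share of the counts without the 5 most abundant miRNAs, the let-7 total at EGME0 was 10.03%. Over all miRNAs, 3 calls at EGME50 became 0 with RLE factors or the chip block and 11 with library totals or no filter, and without the filter 33 at EGME60 became 61 and 48 for the slope became 90.

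When each library was left out in turn, the members called numbered 0 to 1 at EGME60, 1 to 2 at EGME75 and 1 to 2 for the slope, and relative to the family 1 to 3 at EGME75 and 2 to 4 for the slope. Values around 0 crossed it: let-7e for the slope (-0.21 to 0.17) and relative to the family at EGME60 (-0.24 to 0.21), let-7f at EGME50 (-0.12 to 0.14) and relative to the family at EGME60 (-0.0887 to 0.19) and EGME75 (-0.0049 to 0.18), and let-7i at EGME50 (-0.0156 to 0.27), EGME60 (-0.0394 to 0.28), EGME75 (-0.43 to 0.0206), for the slope (-0.17 to 0.10) and relative to the family at EGME50 (-0.16 to 0.13) and EGME60 (-0.32 to 0.18).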

Other observations

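The nearest relatives of the members were scarce in these libraries. miR-98-5p, which shares the let-7 seed, had 28 counts over 8 of the 39 libraries and did not pass the filter. The table held 7 rows of let-7 passenger (3p) arms of which let-7a-1-3p and let-7c-2-3p were identical in every library, 17 counts each. The 6 distinct rows held 219 counts, against 33681 counts of the 8 members, and 183 of the 219 were let-7d-3p. let-7d-3p had 39, 76, 60 and 8 counts at EGME0, EGME50, EGME60 and EGME75, not scaled for depth. No counts of the other passenger arms were listed at EGME75. miR-3596a, annotated on the strand opposite the let-7a-2 hairpin, had 143 counts over 23 libraries, and it was not tested either.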
